A study of Mus musculus with 17 samples.

Results

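A run of 58 neighbouring genes on mouse chromosome 8 was followed through RNA sequencing libraries of tumour lines that grew from mesenchymal stem cells. Its members were listed by symbol, from Lpcat2 at chr8:92855313-92919279 to Wwp2 at chr8:107436334-107559290 (GRCm38.p6, the assembly behind mm10), and were chosen by their levels in these same libraries, which stood high together in some lines. Levels by library are therefore a description and carry no test. Of the 58 symbols, 57 were among the 23420 genes of the table and Dus2 was not. All 57 passed the filter on low counts and were among the 13796 genes kept over all 17 libraries, of which 738 lie on chromosome 8.

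All cells came from C57BL/6 mice with the R172H knock-in, which puts a mutant of the tumour suppressor p53 in place of the normal protein, and the controls carry it too. The groups were bone marrow mesenchymal stem cells (MSC, 3 libraries), first-generation tumour lines made from tumours of such cells (TL1, 6 libraries) and second-generation lines (TL2, 4 libraries), which were grown from tumours that injected TL1 cells had formed. There were also 2 control clones (Mut clones) and 2 clones labelled as p53 knockout (KO clones), all from first-generation tumour lines, and the labels do not say which line a clone was taken from. The number in parentheses of a title (1, 2 or 3) is kept in the library names, with a letter a or b, given in accession order, where a group holds a number more than once. Cells from tumours were kept on plates with an agar coat and given leukaemia inhibitory factor, while MSC had MSC medium, so culture and tumour origin cannot be told apart, and no library was from cells past passage 20.

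Genes that lie next to each other are carried by the same stretch of DNA, and a gain or loss of such a stretch changes the number of templates for every gene in it, whatever the genes do. Cells with defective p53 tolerate broken and rearranged chromosomes, and gains and losses of chromosome segments are a common feature of tumour lines with p53 mutations. The members share no pathway. They include the chromatin organiser Ctcf, the shelterin genes Terf2 and Acd, the pore scaffold gene Nup93 and enzymes of the cytosol and mitochondria. DNA was not measured in these files.

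Several members start back to back from 1 short stretch of DNA, and 5 such divergent pairs were found among them with RefSeq gene starts of GRCm38.p6. All 5 pairs had both partners over 1.5-fold up in TL1 1b and TL2 1. Sequence is shown for the 2 pairs with a stretch outside both RefSeq gene spans long enough to print: of the 158 and 287 bases between their starts, the 82 and 93 that lie outside both spans. Letters run 5′ to 3′ on the plus strand, and capitals mark a CCAAT box in the one sequence and a GC box (GGGCGG) in the other.

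Nudt21 and Ogfod1, chr8:94037040-94037121: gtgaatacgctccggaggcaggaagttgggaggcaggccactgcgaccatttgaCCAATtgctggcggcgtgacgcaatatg

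Fhod1 and Slc9a5, chr8:105348063-105348155: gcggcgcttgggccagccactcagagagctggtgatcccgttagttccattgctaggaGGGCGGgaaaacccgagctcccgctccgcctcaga

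In the RefSeq promoter table of the same build, 48 members had an entry, in 54 windows of 250 bases before a gene start. On either strand, GGGCGG stood in 59.3% of these windows and in 32.7% of all 32851 windows, and CCAAT in 35.2% and 33.8%. The median G and C content was 60.4% in member windows and 52.4% in all. A match of letters is a description of the window and not a binding site.

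Library totals ranged from 12215025 to 15962341 counts, and no 2 libraries of a group were as alike as sampling noise allows. Levels are given as CPM, which are counts divided by the library total after TMM scaling (trimmed mean of M values) and multiplied to a common total. The levels and sums of cell type markers are the exception, as they are per library total without TMM. A log2 difference is log2(CPM + 1) of a gene in a library minus the median of that gene over the 17 libraries, and "over 1.5-fold" refers to this scale. Sums of the 12 bone marrow stromal markers ranged from 17327 to 25083 CPM for the MSC libraries. Those of the tumour lines ranged from 1583 to 9326 CPM. Thy1 was at 0 in TL1 2a and Mut clone 1, with none of the 12 at 0 elsewhere. Col1a1, Col1a2 and Cxcl12 had the highest MSC levels of this list and were lower in every tumour line. The sum does not describe every marker, since Cd44 and Vcam1 were higher in the number 1 lines. Cd44 levels were 440, 346 and 426 CPM in TL1 1a, TL1 1b and TL2 1, above its MSC levels of 148 to 265 CPM. Those of Vcam1 were 247, 118 and 122 CPM, above 71.5 to 94.5 CPM. Skeletal muscle markers differed more between lines (110 to 2754 CPM in TL1, 0.403 to 815 CPM in TL2) and summed to 1917, 566 and 128 CPM in TL1 1a, TL1 1b and TL2 1. The 6 endothelial markers stayed under 4 CPM in sum in every library, with Emcn at 0 in all 17, the 6 epithelial markers summed to 7.01 to 15.3 CPM in the number 1 tumour lines and 5.25 to 323 CPM in the other tumour lines, and the 8 macrophage and blood markers to 6.31 to 59.2 CPM over all libraries. Their part in the results was not tested. The members' levels are from bulk RNA, in which fewer cells of a type and less RNA per cell cannot be told apart.

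The members were high in all 3 tumour lines with the number 1 and not in MSC 1. Their median log2 difference was 1.49 in TL2 1 (2.81-fold), 1.13 in TL1 1b (2.18-fold) and 0.68 in TL1 1a (1.6-fold). In the other tumour lines it ran from -0.53 in TL1 3b to 0.40 in TL2 2b, and in MSC 1, 2 and 3 it was -0.27, -0.12 and -0.08. The Mut clones had medians of -0.42 and -0.40 and the KO clones 0.22 and 0.00. The run had been described as raised in 2 lines, and these data place TL1 1a beside TL1 1b and TL2 1 at a smaller size.

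In TL2 1, 55 of the 57 members were over 1.5-fold above the median library, against 13.4% of all genes. In TL1 1b it was 53 members (14% of all genes) and in TL1 1a 37 members (12.9%). The next highest were TL2 2b with 15 members (11.8%) and TL1 2b with 11 (10.3%). TL1 3b was the low end, with 24 members over 1.5-fold below (8.13%). The library in which a member was highest was TL2 1 for 42 members (8.56% of all genes) and TL1 1b for 12 (5.71%), and the others were Lpcat2 in TL1 2b, Gnao1 in TL2 2b and Dok4 in KO clone 2.

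**Figure D1:**
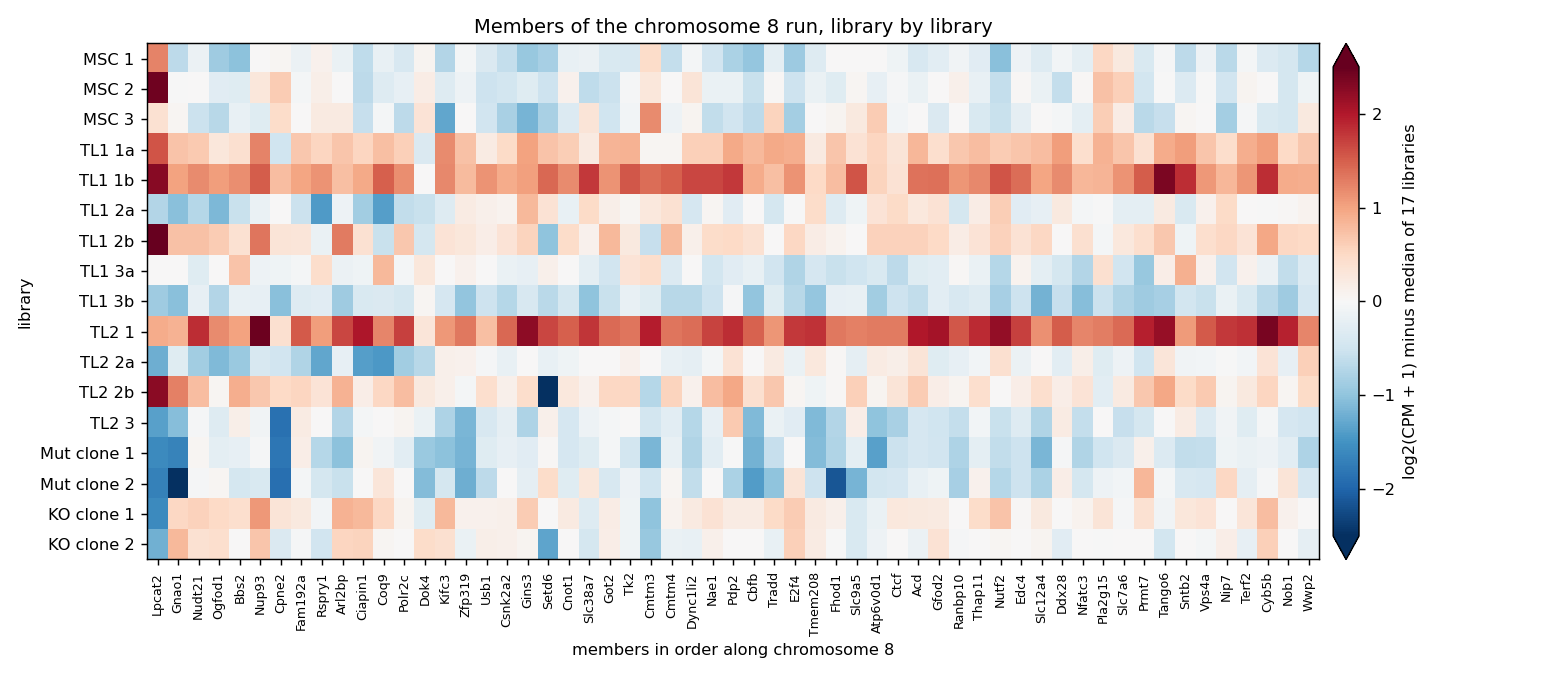
Each column is a member in its order along chromosome 8 and each row a library. Colour gives the log2 difference of log2(CPM + 1) from the median of the 17 libraries (colour scale ends at 2.5 in both directions). The rows TL1 1a, TL1 1b and TL2 1 are red across almost the whole run, and the left end is blue in TL1 2a and TL2 2a.

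TL2 1 was above TL1 1b for 43 of the 57 members (45.5% of all genes) and TL1 1b above TL1 1a for 55 (49.1%), and 41 followed the whole order (17.4%). For 29 members each of the 3 lines was above all 14 other libraries, which held for 1.06% of all genes, and for 31 members they were above the 7 other tumour lines (1.97%). All 3 were above MSC 1, the stem cell library with the same number, for 53 members (28.5%). The members took up 1.42% of the scaled library in TL2 1, 1.07% in TL1 1b and 0.743% in TL1 1a, against 0.305% in TL1 3b and 0.373% to 0.425% in MSC. TL1 2b at 0.670% and TL2 2b at 0.609% came close to TL1 1a. KO clones 1 and 2 had 0.571% and 0.504%, and every remaining library had at most 0.445%. These counts describe values that the choice of members used.

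**Figure D2:**
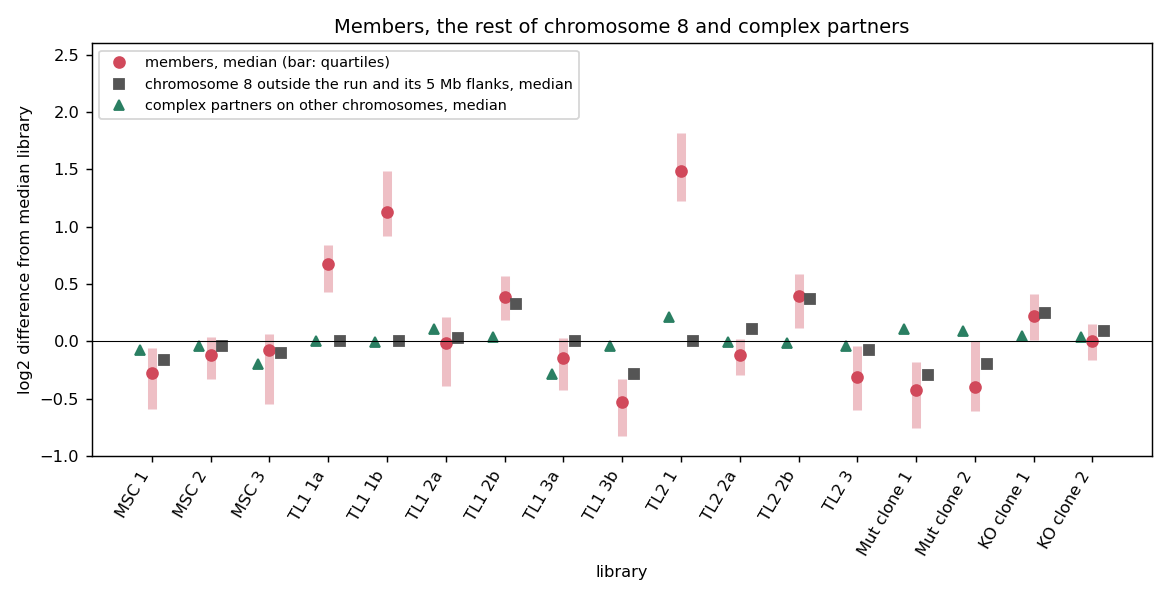
Median log2 difference from the median library over the 57 members (red points, bars from the first to the third quartile), over chromosome 8 outside the run and its 5 Mb flanks (squares) and over 70 complex partners encoded on other chromosomes (triangles), by library. In TL1 1a, TL1 1b and TL2 1 the squares lie at 0.00 while the red points lie at 0.68, 1.13 and 1.49.

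Among 7 chromatin and transcription genes, all 7 were over 1.5-fold up in TL2 1, 6 in TL1 1b and 5 in TL1 1a. Values of TL1 below are in the order 1a, 1b, 2a, 2b, 3a and 3b, and those of TL2 in the order 1, 2a, 2b and 3. Cbfb, the subunit that steadies Runx factors on DNA, stood at 95.8, 128 and 120.3 CPM in MSC, at 330.0, 358, 189.6, 245, 167 and 95.3 CPM in TL1 and at 527, 191, 249 and 87.9 CPM in TL2. It was at 82.4 and 71.1 CPM in the Mut clones and 218 and 189 CPM in the KO clones. The number 1 lines held its 3 highest values, with no overlap with the other 14 libraries.

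E2f4, an E2F factor that mostly represses cell cycle genes in resting cells, was at 81.9, 107 and 84.6 CPM in MSC. Its levels were 289.7, 333, 152, 219.7, 90.8 and 94.6 CPM in TL1, 524, 137, 158 and 126 CPM in TL2, 154 and 193 CPM in the Mut clones and 238 and 231 CPM in the KO clones. Again the number 1 lines did not overlap with any other library. Nfatc3, a calcium-regulated factor, was at 112, 135 and 111 CPM in MSC, 179, 236, 129, 176, 79.9 and 63.1 CPM in TL1 and 312, 147, 169.6 and 87.4 CPM in TL2. Its Mut clone levels were 78.4 and 97.9 CPM and its KO clone levels 141 and 133 CPM, and TL1 1a at 179 CPM was only just above TL1 2b at 176 CPM.

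Ctcf, which holds chromatin loops in place, was an exception in TL1. It was at 88.2, 93.5 and 90.3 CPM in MSC, 119.9, 123, 133, 143, 60.5 and 65.7 CPM in TL1, 237, 106, 119.7 and 53.6 CPM in TL2, 65.2 and 71.2 CPM in the Mut clones and 114 and 95.2 CPM in the KO clones. TL2 1 was the highest library, while TL1 1a and 1b lay below TL1 2a and 2b, and in TL1 1b Ctcf was among the 3 members with the smallest difference (0.37). Its neighbours in the run did not share this in TL1 1b, where Thap11, a zinc finger regulator of embryonic stem cells, differed by 1.21 and Acd by 1.36. Polr2c, a subunit of RNA polymerase II, differed by 0.59, 1.15 and 1.7 in TL1 1a, TL1 1b and TL2 1, and the zinc finger gene Zfp319 by 0.74, 0.79 and 1.33.

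All 3 telomere and replication members were over 1.5-fold up in each number 1 line. Terf2, which folds chromosome ends into protective loops, was at 40.6, 43.9 and 41.1 CPM in MSC, 79.7, 91.96, 42.04, 53.6, 45.5 and 32.1 CPM in TL1 and 151, 39.9, 50.2 and 33.95 CPM in TL2. In the clones it was at 37.2 and 35.8 CPM (Mut) and 52 and 36.1 CPM (KO). Its shelterin partner Acd, which recruits telomerase, was at 36.8, 43.3 and 48.8 CPM in MSC, 87.7, 127, 58.8, 73.6, 39.2 and 31.5 CPM in TL1, 199, 61.5, 76.6 and 36.4 CPM in TL2, 36.02 and 42.7 CPM in the Mut clones and 57.96 and 43.8 CPM in the KO clones. For both genes the number 1 lines were the 3 highest libraries and TL2 1 the highest.

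Gins3, a subunit of the helicase complex that opens replication forks, was the member with the largest edgeR change of tumour lines against MSC, though that change was not called. It was at 9.69, 15.8 and 8.24 CPM in MSC, 40.7, 41.4, 35.5, 29.7, 17.04 and 14.8 CPM in TL1, 97.4, 19.7, 26.98 and 11.2 CPM in TL2, 16.1 and 16.8 CPM in the Mut clones and 31.1 and 20.8 CPM in the KO clones. Its difference of 2.25 in TL2 1 was among the 3 largest there, and the number 1 lines were again the 3 highest, with TL1 2a close behind TL1 1a.

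The 7 RNA processing members were all over 1.5-fold up in TL1 1b and TL2 1, and 4 of them in TL1 1a. Cnot1, the scaffold of the CCR4-NOT complex that shortens poly(A) tails, was at 249.5, 305 and 223 CPM in MSC, 432, 646, 249, 389, 283 and 207 CPM in TL1, 794, 261, 340.2 and 212 CPM in TL2, 211 and 228 CPM in the Mut clones and 330.1 and 284 CPM in the KO clones. The number 1 lines were the 3 highest libraries. Nudt21, which helps to choose the site where a transcript is cleaved and polyadenylated, was at 122, 136 and 92.6 CPM in MSC, 214, 308, 82.3, 225, 109.8 and 117 CPM in TL1, 488, 74.2, 233 and 133 CPM in TL2, 139.9 and 133 CPM in the Mut clones and 204 and 178 CPM in the KO clones. For Nudt21 the lines 2a were the low end in both generations, and TL1 1a lay below TL1 2b and TL2 2b. Across the CCAAT-bearing stretch shown above, Nudt21 differed by 0.65, 1.18 and 1.84 in TL1 1a, TL1 1b and TL2 1 and Ogfod1, a prolyl hydroxylase of a ribosomal protein, by 0.28, 1.05 and 1.18.

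Usb1, which trims the U6 RNA of the spliceosome, was the RNA processing member nearest to the median library in TL2 1 (0.74). It was at 43.6, 38.6 and 39.99 CPM in MSC, 64.6, 123, 61.6, 62.8, 56 and 38.8 CPM in TL1, 94.4, 55.03, 75.7 and 42.2 CPM in TL2, 45.5 and 35.2 CPM in the Mut clones and 60.7 and 62.4 CPM in the KO clones. TL1 1b was its highest library, and TL1 1a lay among the other lines. Of the rest, the decapping scaffold Edc4 differed by 0.70, 1.39 and 1.7 in TL1 1a, TL1 1b and TL2 1, and the ribosome assembly genes Nip7 and Nob1 by 1.76 and 1.93 in TL2 1.

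All 3 nuclear transport members were over 1.5-fold up in the number 1 lines. Nup93, which builds the inner ring of the nuclear pore, had the largest difference of any member in TL2 1 (2.45). It was at 92.9, 114 and 74.7 CPM in MSC, 221, 267, 83, 237, 85.05 and 80.97 CPM in TL1, 511, 69.7, 148 and 87.8 CPM in TL2, 90.9 and 70.99 CPM in the Mut clones and 198 and 149.9 CPM in the KO clones. TL1 2b at 237 CPM was above TL1 1a, so the groups by number overlapped. Nutf2, the import carrier of Ran, differed by 0.64, 1.57 and 2.2 in TL1 1a, TL1 1b and TL2 1, and Ranbp10, which binds Ran, by 0.67, 1.1 and 1.55.

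The 6 protein modification members were all over 1.5-fold up in TL1 1b and TL2 1. Nae1, a subunit of the enzyme that activates the ubiquitin-like protein Nedd8, was at 45.1, 56.1 and 41.2 CPM in MSC, 95.6, 203, 65.7, 88, 45.8 and 43.9 CPM in TL1, 207, 60.9, 109 and 54.8 CPM in TL2, 52.2 and 63.3 CPM in the Mut clones and 81.1 and 69.5 CPM in the KO clones. TL1 1b and TL2 1 were nearly equal and far above every other library, and TL2 2b lay above TL1 1a. Wwp2, a ubiquitin ligase and the last member by position, was at 63.7, 96.9 and 124 CPM in MSC, 168, 198, 111, 149, 82.6 and 77.97 CPM in TL1, 246, 158, 147 and 75.1 CPM in TL2, 60.5 and 78.2 CPM in the Mut clones and 105 and 89.5 CPM in the KO clones. There the number 1 lines were the 3 highest.

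Setd6, a lysine methyltransferase, departed from its neighbours in the lines 2b and in KO clone 2. It was at 12.1, 15.2 and 12.2 CPM in MSC, 37.03, 62, 28.98, 10.6, 24.5 and 13.7 CPM in TL1, 72.7, 19.4, 0.419 and 24.4 CPM in TL2, 22.7 and 31.1 CPM in the Mut clones and 22.3 and 8.35 CPM in the KO clones. The differences of -4.04 in TL2 2b and -1.01 in TL1 2b stand beside 0.43 and 0.57 for Gins3 before it and 0.27 and 0.46 for Cnot1 after it. In KO clone 2 Setd6 differed by -1.32, the lowest of the members, whose median there was 0.00. Setd6 overlaps Cnot1 by 2577 bases, and without a stated strand setting reads there cannot be told apart. In all, 17 members overlap another tested gene, and the 40 others had medians of 0.69, 1.13 and 1.54 in TL1 1a, TL1 1b and TL2 1.

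Among 6 mitochondrial and redox members, all 6 were over 1.5-fold up in TL1 1b and TL2 1, and 5 in TL1 1a. Cyb5b, the cytochrome b5 of the outer mitochondrial membrane, was at 234, 295 and 227 CPM in MSC, 611, 1060.5, 294, 578, 267 and 184 CPM in TL1, 1525, 372, 430.5 and 285 CPM in TL2, 271 and 289.6 CPM in the Mut clones and 504 and 449 CPM in the KO clones. Its differences of 1.84 in TL1 1b and 2.37 in TL2 1 were among the 3 largest in either line. Got2, the mitochondrial aspartate aminotransferase of the malate-aspartate shuttle, was at 299, 268 and 276 CPM in MSC, 701, 853, 432, 681, 282 and 264 CPM in TL1, 1044, 390.3, 560.3 and 378 CPM in TL2, 378 and 294 CPM in the Mut clones and 444 and 438 CPM in the KO clones. The number 1 lines were the 3 highest for both genes, with TL1 2b close behind TL1 1a.

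The coenzyme Q gene Coq9 and Ciapin1, which helps to assemble iron-sulfur clusters, start 72 bases apart and were high in the number 1 lines and low in the lines 2a. Coq9 differed by 0.75, 1.5 and 1.21 in TL1 1a, TL1 1b and TL2 1 and by -1.38 and -1.43 in TL1 2a and TL2 2a. Ciapin1 differed by 0.53, 0.94 and 2.03 in the number 1 lines and by -0.86 and -1.38 in the lines 2a. The divergent partners did not always move by the same size, since the difference of Ciapin1 was the larger in TL2 1 and that of Coq9 in TL1 1b. Their gene spans overlap by 418 bases, where reads may be shared or lost.

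Of 10 trafficking and cytoskeleton members, all 10 were over 1.5-fold up in TL2 1, 8 in TL1 1b and 7 in TL1 1a. Tango6, a gene of the secretory pathway, had the largest difference of any member in TL1 1b (2.35). It was at 21.7, 22.1 and 14.5 CPM in MSC, 42.9, 117, 25.8, 35.6, 24.7 and 12.02 CPM in TL1, 104, 27.6, 44.2 and 22.1 CPM in TL2, 17.3 and 21.2 CPM in the Mut clones and 20.7 and 15.8 CPM in the KO clones. TL1 1b and TL2 1 were the 2 highest libraries, and TL1 1a lay just below TL2 2b.

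Tmem208, a membrane protein of the endoplasmic reticulum, stood apart in TL2 1 alone. It was at 21.2, 23.8 and 26.6 CPM in MSC, 31.3, 38.2, 37.02, 30.4, 19.6 and 13.2 CPM in TL1, 95.9, 32.2, 24.7 and 11.9 CPM in TL2, 12.01 and 18.3 CPM in the Mut clones and 31.3 and 30.7 CPM in the KO clones. In TL1 the number 1 lines overlapped with TL1 2a and 2b. Tmem208 overlaps Fhod1 by 6326 bases, and without a stated strand setting reads there cannot be told apart. The kinesin Kifc3 differed by 1.17, 1.2 and 1.08 in TL1 1a, TL1 1b and TL2 1, the dynein chain Dync1li2 by 0.60, 1.66 and 1.4, and Vps4a, the ATPase that takes ESCRT-III apart, by 0.70, 1.08 and 1.54. The formin gene Fhod1, which starts back to back with the sodium-proton exchanger gene Slc9a5, differed by 0.68, 0.77 and 1.33 in TL1 1a, TL1 1b and TL2 1, and Slc9a5, across the stretch with the GC box, by 0.37, 1.58 and 1.26.

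Of 6 signalling members, 5 were over 1.5-fold up in TL1 1b, 4 in TL2 1 and 2 in TL1 1a. Dok4, a docking protein of receptor tyrosine kinases, was at 10.6, 11.6 and 12.97 CPM in MSC, 7.63, 10.1, 6.56, 7.13, 12.4 and 10.4 CPM in TL1, 12.6, 5.83, 12.1 and 8.81 CPM in TL2, 4.77 and 4.19 CPM in the Mut clones and 8.0 and 14.2 CPM in the KO clones. It was highest in KO clone 2, and the number 1 lines lay among the other libraries. Cpne2, a calcium-dependent membrane-binding copine, was at 45.96, 69.5 and 61.05 CPM in MSC, 31.2, 75.8, 44.2, 55.7, 40.99 and 20.9 CPM in TL1, 58.5, 31.3, 62.4 and 11.3 CPM in TL2, 11.9 and 11.2 CPM in the Mut clones and 55.7 and 34.2 CPM in the KO clones. TL1 1a was below every MSC library for Cpne2, and MSC 2 was above TL2 1.

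Gnao1, the alpha subunit of the G protein Go, was at 48.1, 75.9 and 79.3 CPM in MSC, 126, 155, 36.7, 128, 76.7 and 36.8 CPM in TL1, 141, 61.8, 184 and 36.1 CPM in TL2, 23.5 and 7.19 CPM in the Mut clones and 109 and 135 CPM in the KO clones. TL2 2b was its highest library. Cmtm3 and Cmtm4, neighbouring MARVEL domain genes, were near the median library in TL1 1a (both 0.05) and differed by 1.39 and 1.49 in TL1 1b. Tradd, the adaptor of the tumour necrosis factor receptor, differed by 0.95, 0.76 and 1.1 in TL1 1a, TL1 1b and TL2 1.

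All 6 membrane transport and lipid members were over 1.5-fold up in TL1 1b and TL2 1, and 4 in TL1 1a. Lpcat2, which remodels phosphatidylcholine and is the first member by position, went its own way. It was at 6.60, 16.4 and 3.21 CPM in MSC, 8.60, 14.6, 0.937, 19.1, 2.23 and 0.751 CPM in TL1 and 5.12, 0.388, 14.5 and 0.257 CPM in TL2, and at most 0.398 CPM in the 4 clones. TL1 2b and MSC 2 were above all number 1 lines, and TL2 2b above TL1 1a and TL2 1. The potassium-chloride cotransporter gene Slc12a4 differed by 0.77, 0.99 and 1.14 in TL1 1a, TL1 1b and TL2 1, the lysosomal phospholipase gene Pla2g15 by 0.86, 0.85 and 1.28 and the amino acid transporter gene Slc7a6 by 0.70, 1.13 and 1.42. The 3 less characterised members Fam192a, Rspry1 and Gfod2 differed by 0.99 to 2.09 in TL1 1b and TL2 1.

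Genes of other chromosomes whose products work in a complex with a member did not stand as high as the members. The members were chosen by their levels in these libraries and the partners by function. A higher member median follows from that choice, so the values are a description and no test. For 17 members, 74 such partners were listed by function, of which 4 lie on chromosome 8 and 70 were used. Their median log2 difference was 0.00 in TL1 1a, 0.00 in TL1 1b and 0.21 in TL2 1, while the 17 members themselves had medians of 0.65, 1.15 and 1.54. Over 1.5-fold up were 4, 8 and 16 of the 70 partners in these lines (5.71%, 11.4% and 22.9%). The shares over all genes were 12.9%, 14% and 13.4%, so in TL2 1 the partners' share was above that of all genes. Beside Nup93 at 2.45 in TL2 1, its partners Nup205, Nup188, Nup155 and Nup35 differed by 0.34, 0.27, 0.87 and 0.72. Beside Terf2 at 1.82, its listed shelterin partners Terf1, Tinf2, Pot1a and Pot1b differed by 0.80, -0.29, -0.90 and 0.14. Beside Cbfb at 1.48, Runx1, Runx2 and Runx3 differed by 0.08, -0.05 and 0.03.

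The high levels were not confined to the listed members. Within the run lie 61 other tested genes, with medians of 0.64 in TL1 1a, 1.06 in TL1 1b and 1.26 in TL2 1, and over 1.5-fold up were 36, 44 and 44 of them. Over the 557 tested genes of chromosome 8 outside the run and its 5 Mb flanks, the median was 0.00 in each of the 3 lines, 0.33 in TL1 2b and 0.37 in TL2 2b. The members' medians of 0.39 and 0.40 in the lines 2b were close to those of the rest of their chromosome, and in TL1 3b the members' -0.53 stands beside -0.28.

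**Figure D3:**
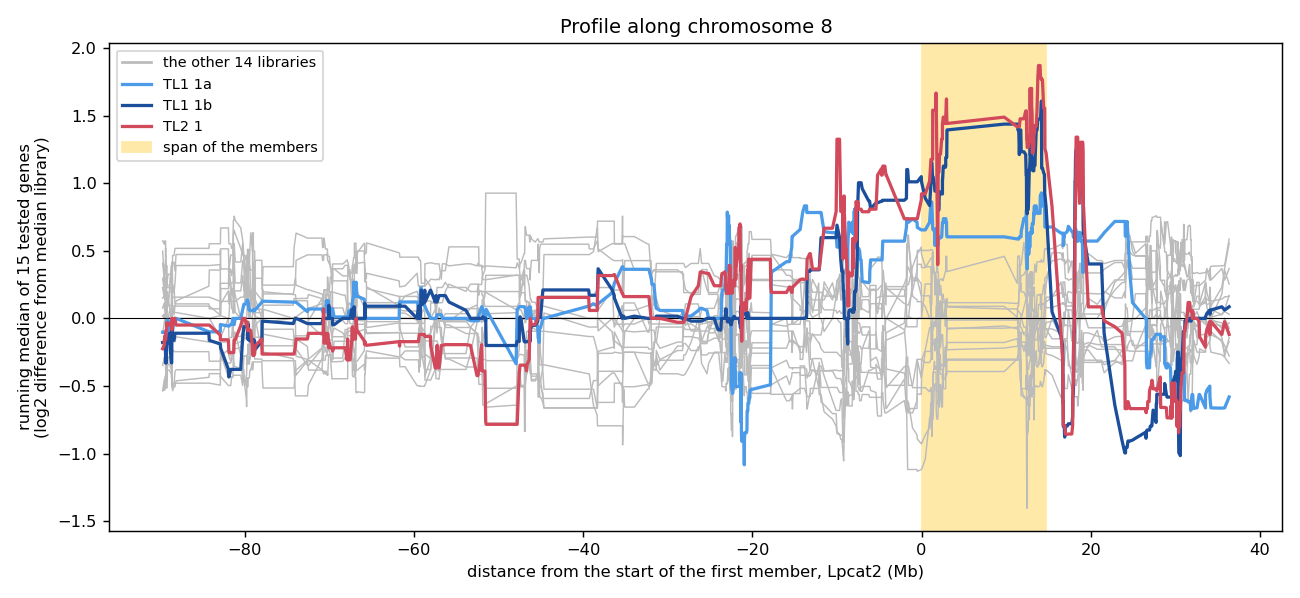
Running median over 15 neighbouring tested genes of the log2 difference from the median library (vertical axis) against distance from the start of Lpcat2 in Mb, for the 3 number 1 lines (coloured) and the other 14 libraries (grey). Inside the shaded span of the members all 3 lines lie above 0. To the right of it TL1 1b and TL2 1 fall below 0, rise above 1 and fall again, while TL1 1a falls later.

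Just outside the run on the left lies Mmp2, a gelatinase that digests collagen, at 817, 776 and 459 CPM in TL1 1a, TL1 1b and TL2 1. It was also at 624 CPM in TL1 3a and 266, 432 and 325 CPM in MSC, and at 5.89 and 6.73 CPM in TL1 2a and TL2 2a. The next gene out, Irx5, a homeobox factor, differed by 0.22, 0.00 and 0.53 in the number 1 lines, and 4933436C20Rik by 0.08, 0.19 and 0.16. Just outside on the right, the proteasome gene Psmd7 was at 417, 613 and 1012 CPM in the number 1 lines, against 196, 245 and 208 CPM in MSC, and differed by 0.51, 1.06 and 1.79. Zfhx3, a large transcription factor gene after it, differed by 0.83, -0.96 and -1.25, so that TL1 1a was high there and TL1 1b and TL2 1 were low. Gm1943 differed by -0.21, 0.05 and 0.83. The last members inside, Nob1 and Wwp2, differed by 0.49, 0.92 and 1.93 and 0.68, 0.92 and 1.22 in TL1 1a, TL1 1b and TL2 1.

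Beyond the run lay stretches of genes with higher and lower medians in TL1 1b and TL2 1, below 0 only to the right of the run. Their borders were set after the values were seen, so the medians are a description. On the left, the 9 tested genes from Chd9 to Mmp2 had medians of 0.25, 0.87 and 0.64 in TL1 1a, TL1 1b and TL2 1. Further out, the 24 from Vps35 to Cyld had medians of 0.46, 0.98 and 1.08, the 56 from Zfp330 to Man2b1 medians of 0.60, 0.07 and 0.53, and the 4 from Smarca5 to Inpp4b medians of 0.76, 1.11 and 1.61. On the right, the 19 from Dhx38 to St3gal2 had medians of 0.64, -0.78 and -0.79, and the 16 from Ddx19a to Bcar1 medians of 0.55, 1.24 and 1.35. After the pair Cfdp1 and Tmem170 at 0.52, -0.68 and -0.52 came 7 genes from Tmem231 to Mon1b at 0.57, 1.08 and 1.64, and then 13 from Nudt7 to Mphosph6 at 0.72, -1.0 and -1.0. To the right of the run TL1 1a lay between 0.52 and 0.72 in all 5 of these stretches, while TL1 1b and TL2 1 were below 0 in 3 of them.

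**Figure D4:**
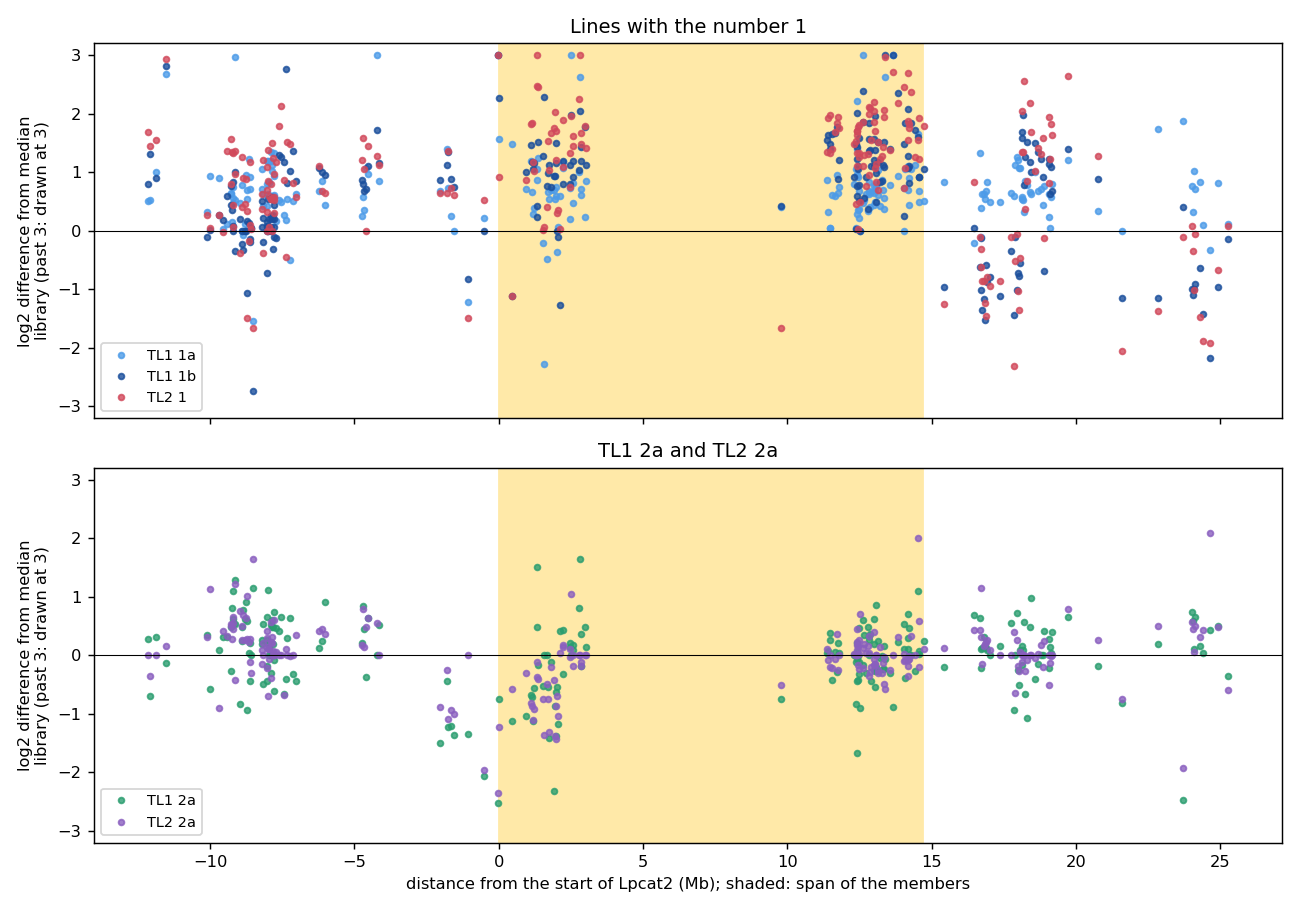
Log2 difference from the median library of single genes (mean level 5 CPM or more) against distance from the start of Lpcat2 in Mb, in the number 1 lines (top) and in TL1 2a and TL2 2a (bottom). Shading marks the span of the members, and values past 3 in either direction are drawn at 3. In the bottom panel the genes around the left end of the run lie below 0 and the others around it.

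The run was not uniform in every line. In TL1 2a and TL2 2a the first 14 members, from Lpcat2 to Dok4, had medians of -0.67 and -0.86, and the other 43, from Kifc3 to Wwp2, medians of 0.05 and -0.02. Over 1.5-fold below were 8 members in TL1 2a (13.4% of all genes) and 10 in TL2 2a (6.54%), all of them among the first 14. Rspry1, of little known function, was at 13.1 and 14.2 CPM in TL1 2a and TL2 2a and at 39.7, 40.9 and 43.1 CPM in MSC, and Coq9 at 19.3 and 18.6 CPM against 45.5, 41.3 and 49.8 CPM. In the lines 2b, which bear the same number, the first 14 members had medians of 0.51 in TL1 and 0.60 in TL2. The low stretch began outside the members, since the 33 tested genes from Chd9 to Ccdc102a had medians of -0.71 and -0.81 in the lines 2a. The split, too, was set after the values were seen.

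The 3 genes outside the members whose level over the 17 libraries was most like the median member profile were all on chromosome 8. Vps35, a core part of the retromer that sorts cargo out of endosomes, had Pearson's r of 0.971, Gtl3 0.967 and Psmd7 0.954. Of the 50 non-members most alike, 41 lie on chromosome 8 and 15 within the run. Of the 13796 tested genes, 738 lie on chromosome 8, members included, and 61 non-members lie within the run. The median r over all genes was -0.01. Among the members, r to their own median ran from 0.29 to 0.98, with a median of 0.859. These values share libraries, and the profile is that of members chosen by their levels in them, so they are given as a description.

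The study's own comparisons were run over all genes with edgeR's quasi-likelihood test, with Benjamini-Hochberg adjustment and calls at an adjusted p under 0.05. Nothing in the labels ties the libraries of a group to separate mice or cultures, and the p-values then reflect only how far these libraries scatter, which may be technical. For tumour lines against MSC, which asks how lines from tumours differ from the cells they came from, no member was called of 57, against 8.65% of the 13262 genes tested. Changes were positive for 52 members, with a median of 0.75, beside 0.40 over the 655 other tested genes of chromosome 8 and 0.10 over all genes. An unadjusted p under 0.05 was found for 10 members and for 26.4% of all genes, and the lowest adjusted p was 0.0885. Only Nip7, of ribosome assembly, had its 10 tumour line levels above its 3 MSC levels, while groups did not overlap for 12.5% of all genes.

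By edgeR, the largest change was that of Gins3, with MSC 2 above TL1 3b and TL2 3, at 1.63 (SE 0.60, adjusted p = 0.108). The smallest edgeR change was that of Lpcat2 at -0.45 (SE 1.11, adjusted p = 0.824). With the title number as a replicate block, edgeR called 2 members, Kifc3 at 1.02 (SE 0.27, adjusted p = 0.0331) and Nip7 at 1.07 (SE 0.31, adjusted p = 0.0473). DESeq2 called 3 members, namely Gins3, Nip7 and Pdp2, a phosphatase that activates pyruvate dehydrogenase. The members' median was 0.48 without TL2 1 and 0.25 without all 3 number 1 lines, an alternative chosen after the data were seen, again with no member called. The members were picked for their levels in some of these lines, so nothing further is read from these changes.

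In TL2 against TL1, which asks what changed with a further passage through a tumour, no member was called, and no gene of the 13262 (0%). Unadjusted p was under 0.05 for no member and for 246 genes (1.85%). The members' median change was 0.23, with 50 positive, and it turned to -0.37 with 3 positive without TL2 1. It was 0.14 without TL1 3a, 0.09 without TL1 3b, 0.41 without TL1 1b, 0.40 without TL2 2a and 0.44 without TL2 3, so the median rests on which libraries are present. DESeq2 also called no member. The extremes were Tmem208 at 0.56 (SE 0.47) and Lpcat2 at -0.59 (SE 1.13), and every adjusted p of a member was 1.00.

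**Figure D5:**
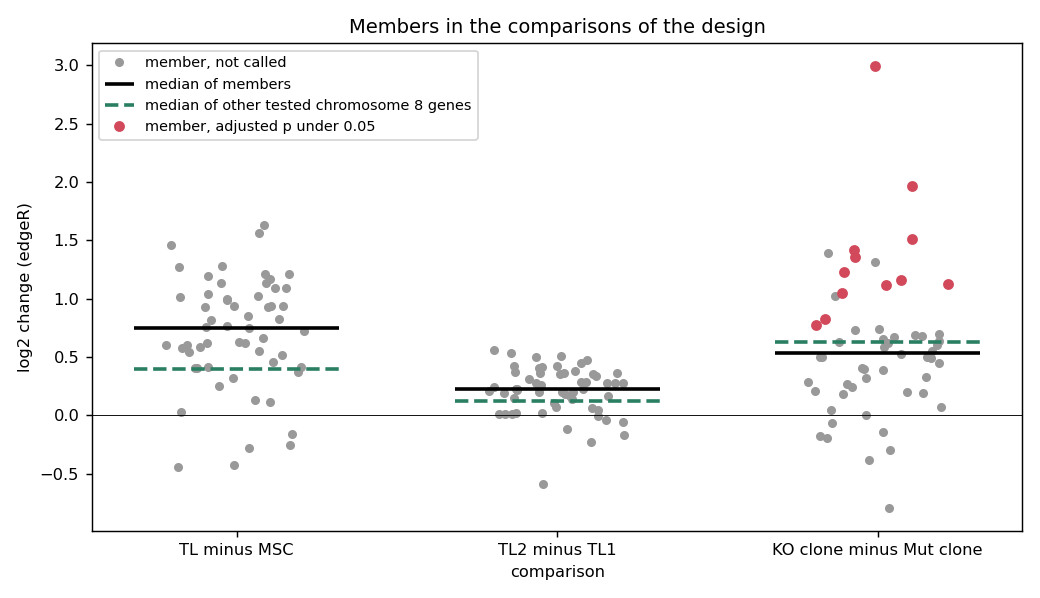
Log2 change of each member by edgeR in the 3 comparisons, with called members in red. Solid lines mark the members' median and dashed lines the median of the other tested genes of chromosome 8, at 0.75 and 0.40, 0.23 and 0.12, and 0.54 and 0.62 from left to right. Points are spread sideways for legibility.

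In the KO clones against the Mut clones, which asks what the loss of mutant p53 changes, Trp53 had levels of 357 and 278 CPM in Mut clones 1 and 2, and KO clones 1 and 2 still held 80.5 and 89.5 CPM. Lpcat2 was too low there to be tested. Of the 56 other members, 12 rose and none fell, against 14.2% of the 12238 genes that rose, and the members' median change was 0.54. The rest of chromosome 8 moved as much: of 615 other tested genes 202 rose (32.8%), 75.1% had a positive change and the median was 0.62. The groups did not overlap for 43 members, as for 69.6% of all genes. Leaving out 1 clone at a time gave member medians of 0.40 to 0.61, with the lone sample of a group assumed to vary like the other group. Fewer members were called in these fits, and fewer genes over the whole table. DESeq2 called 20 members, among them all 12. Scaling by library totals left 8 of the 12 called, with a median of 0.41, and Cyb5b, Nutf2, Ranbp10 and Tmem208 were not called there. The shares of all genes called by DESeq2 or with this scaling are not given, so these counts cannot be set against them.

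Gnao1 had the largest change. With 109 and 135 CPM in the KO clones against 23.5 and 7.19 CPM in the Mut clones, edgeR gave a log2 rise of 3.0 (SE 0.59, adjusted p = 0.0221). By edgeR, Cbfb rose by 1.42 (SE 0.21, adjusted p = 0.0058), and Arl2bp, an effector of the small GTPase Arl2, by 1.51 (SE 0.25), from 55.8 and 77 to 208 and 166 CPM. With 1 clone left out at a time, Cbfb rose by 1.30 to 1.53 and Arl2bp by 1.29 to 1.75. Gnao1 and Cpne2 rested more on single clones. Gnao1 rose by 4.09 without Mut clone 1 and by 2.38 without Mut clone 2. Cpne2 rose by 1.57 without KO clone 1 and by 2.28 without KO clone 2. Such changes are not given for the other called members, whose rises may rest on single clones as well. Kifc3 rose by 1.35, Cpne2 by 1.97, Zfp319 by 1.23, Nutf2 by 1.16, Slc12a4 by 1.13 and Nup93 by 1.12, and the smallest rises were those of Tmem208, Ranbp10 and Cyb5b, down to 0.78. At the other end, by edgeR, Setd6 had a change of -0.80 (SE 0.48, adjusted p = 0.262).

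The KO and Mut clones also differed in genes of other chromosomes that set some tumour lines apart, which were picked after their values were seen. Yap1 on chromosome 9 had 149 and 119.6 CPM in the Mut clones against 2253 and 1333 CPM in the KO clones. Among tumour lines it was at 1323, 173, 2552, 2644, 186 and 129 CPM in TL1 and 96.4, 2027, 1372 and 136 CPM in TL2, high in the lines with the number 2 and in TL1 1a. Myc on chromosome 15 had 1758 and 1973 CPM in the Mut clones against 137 and 136 CPM in the KO clones, and 122, 207, 233, 178, 133 and 623 CPM in TL1 and 207, 157, 94.6 and 1042 CPM in TL2, high in TL1 3b and TL2 3 only. Skeletal muscle markers, per library total without TMM, summed to 1892 and 1233 CPM in the KO clones and to under 1 CPM in the Mut clones. Among tumour lines they summed to 1917, 566, 110, 411, 2754 and 191 CPM in TL1 and 128, 253, 815 and 0.403 CPM in TL2. The KO clones thus lay above every line with the number 2, and only TL2 3 was as low as the Mut clones. The members' medians of 0.22 and 0.00 in the KO clones lie within the range of the number 2 lines (-0.12 to 0.40), and the -0.42 and -0.40 of the Mut clones within that of the number 3 lines (-0.53 to -0.14). Since the labels do not name the parent lines, parent line and loss of p53 cannot be told apart in the members' changes.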

How the data were processed

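Total RNA of 17 mouse libraries was sequenced with single-end reads of 60 bases. The deposited values are raw counts per gene symbol, and per the submitters' processing notes cutadapt, TopHat2 2.0.10, HTSeq 0.6.1p1, DESeq2 1.6.3 and the build mm10 were used before the authors deposited the table. The sources used here do not give the role of each tool, the annotation or the strand setting. Without a strand setting, overlapping genes can share or lose reads. The table has 4 more columns of values that match no sample and were not used. Samples were grouped by their titles.

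The members, gene lists and tests were chosen with earlier results of these data known. Dus2 was absent from the table (its older symbol Dus2l is there and was not treated as a member), and Fam192a was placed through a synonym. Positions come from the RefSeq gene table of GRCm38.p6, where 23260 symbols matched, 1689 of them by synonym.

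Levels were computed in R 4.3.3 with edgeR 4.0.16 as log2(CPM + 1) on TMM-scaled totals (filterByExpr over the 5 groups, 13796 genes). Library totals of 12215025 to 15962341 counts set the precision. Comparisons used edgeR's quasi-likelihood test, fitted to MSC, TL1 and TL2 (13 libraries) or to the 4 clones, with Benjamini-Hochberg adjustment over all genes tested and a threshold of 0.05. The steps were tested on simulated data. Alternatives were library totals without TMM, DESeq2 1.42.0, no filter, each library left out, the title number as a block, other pseudocounts (0.5 and 5) and other reference levels. TL1 and TL2 libraries with the same number deviated together (r = 0.431, 0.333 and 0.490 for the numbers 1, 2 and 3, over genes). Second-generation lines were made from first-generation ones, though the titles give only the shared number. Why these libraries deviated together was not tested. The title number paired them only in the alternative with a replicate block. The main fits held no pairing and treated these related lines as separate.

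Genes were named by a rule: 14 by function or position, the 3 members with the largest and the 3 with the smallest difference in TL1 1b and in TL2 1, the members with the extreme change in each comparison, the 3 nearest tested genes on each side and the 3 genes most like the median member profile. Other members are named as examples of their role, and Yap1, Myc and the stretches beyond the run were chosen after their values were seen.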

Additional observations from a re-analysis of the deposited data

Results flagged for a closer look

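Within TL1 or TL2, 6 member levels stood apart from the rest of their group by Dixon's criterion, out of 66 sets of values. The criterion's chance rate of about 1 in 20 does not hold here, since the members were chosen by levels in these libraries and some of the genes were named for extreme values in them, so the 6 are a description and no test. In TL1, Nae1 was at 203 CPM in TL1 1b against 43.9 to 95.6 CPM in the other 5 lines. Usb1 was at 123 CPM in TL1 1b against 38.8 to 64.6 CPM, and Tango6 at 117 CPM against 12.02 to 42.9 CPM. In TL2, E2f4 was at 524 CPM in TL2 1 against 126 to 158 CPM in the other 3 lines. Terf2 was at 151 CPM in TL2 1 against 34.0 to 50.2 CPM, and Cyb5b at 1525 CPM against 285 to 430.5 CPM. All 6 are high values in lines with the number 1.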

How the results depend on the processing

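For tumour lines against MSC, where edgeR called no member, DESeq2 called 3, and the fit with the title number as a replicate block called 2, with a member median of 0.53. MSC and TL1 libraries with the same number hardly deviated together (r = 0.026, 0.050 and 0.192), so there the numbers may pair nothing. For TL2 against TL1, the replicate block called no member, with a median of 0.19. For the KO clones against the Mut clones, DESeq2 called 20 members where edgeR called 12, leaving out 1 clone at a time gave 3 to 6, and scaling by library totals gave 8. The cause was not tested. These counts are not set beside the share of all genes called by the same fit, so nothing about the members as a set is read from them. The median change of the members in TL2 against TL1 turned from 0.23 to -0.37 without TL2 1, with no member called in either fit. The other alternatives kept the number of members called in each comparison within 1.5 times, and the member medians of the number 1 lines within 1 SD of their group. Of the other medians by library (members, stretches of chromosome 8 and partners), 130 moved by less than 1 SD of their group and 17 by more. The member median of MSC 2 went from -0.12 to 0.11 when levels were set against the MSC mean. Scaling by library totals shifted all genes by 0.11 (log2) in KO clone 2 and by -0.10 in TL1 3a at most. No paired analysis was possible for the clones because the 4 libraries carry no shared number.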
